A study of Mus musculus with 18 samples.

Results

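The 10 genes described here encode chaperones and folding enzymes of the endoplasmic reticulum (ER) and components of the unfolded protein response (UPR). They are Hspa5, Hsp90b1, Calr, Pdia4, Pdia6, Dnajb9, Ern1, Xbp1, Atf6 and Ddit3. They were taken from a list of ER stress and chaperone genes and matched by identifier to the GENCODE M21 annotation of GRCm38. They make up 10 of the 51912 gene identifiers for which RNA was quantified, and all 10 passed the filter on low counts in every comparison.

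RNA was sequenced from flow-sorted B cells of C57BL/6 mice, in 18 libraries that fall into 6 groups of 3 biological replicates from littermates. The groups were untreated transitional B cells and untreated follicular B cells of wildtype (WT) and Sh3gl1-/- mice, and follicular B cells of both genotypes treated with CD40L, for 14 h by the labels. Sh3gl1 encodes endophilin A2, an adaptor of endocytosis, and its deletion in these mice is not restricted to B cells, so that the cells that surround them also lacked it. CD40L is the T-cell ligand that activates B cells through CD40. All CD40L-treated cells were cultured and all other cells were taken ex vivo, so that CD40L and culture cannot be told apart. Ages were not given in the sources used here.

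Secretory and membrane proteins fold in the ER, where BiP (Hspa5) and GRP94 (Hsp90b1) bind unfolded chains, calreticulin (Calr) retains unfinished glycoproteins, and protein disulfide isomerases such as Pdia4 and Pdia6 form and shuffle disulfide bonds. When unfolded proteins accumulate, the sensors IRE1 alpha (Ern1), ATF6 (Atf6) and PERK raise the production of chaperones and slow translation: IRE1 splices the mRNA of Xbp1 into the form that encodes an active transcription factor, ATF6 is cut to release one, and PERK leads through ATF4 to CHOP (Ddit3). ERdj4 (Dnajb9) is a co-chaperone of BiP and a well known target of spliced XBP1. In the B-cell lineage this programme is best known from plasma cells, which secrete antibody and require XBP1. Counts per gene do not separate the spliced from the unspliced Xbp1 mRNA, and cleavage of ATF6 leaves its mRNA as it was, so that the activity of the sensors was not measured.

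XBP1, ATF6 and their partner NF-Y act on chaperone promoters through the ER stress response element (ERSE), in which a CCAAT box is followed by CCACG after 9 bases. RefSeq promoter windows on GRCm38.p6, 250 bases before to 50 bases after the start, were available for 9 of the 10 genes, with none used for Atf6. An exact ERSE on either strand was present in 4 of the 9 genes, and in 39 of all 32851 windows of this length (0.119%). The first count is of genes and the other of windows. Since the element is known from chaperone promoters, its presence in a list of chaperones is not read as a result. The matching stretches are shown because the 4 genes that carry them were those with the largest rise after CD40L in WT cells. Dnajb9, which has no exact ERSE in its window, had the largest difference of the 10 in Sh3gl1-/- cells. Each is printed 5′ to 3′ on the strand of its gene, with 5 flanking bases on each side and the CCAAT and CCACG boxes, or their reverse complements, in capitals.
Hspa5, chr2:34772020-34772048 (+): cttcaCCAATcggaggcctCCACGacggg
Hsp90b1, chr10:86705633-86705661 (-): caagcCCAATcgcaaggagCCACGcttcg
Hsp90b1, chr10:86705528-86705556 (-): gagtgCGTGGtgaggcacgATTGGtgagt
Calr, chr8:84847070-84847098 (-): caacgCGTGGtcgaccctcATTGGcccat
Pdia6, chr12:17266486-17266514 (+): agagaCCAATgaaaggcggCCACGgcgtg
The Hspa5 element lay at -65 to -47 from the RefSeq start, and GENCODE places it within the 5′ UTR exon of the longer transcript Hspa5-201. The other 4 stretches overlapped no annotated gene. Hsp90b1 carried a pair of elements, at -212 to -194 and, in the opposite direction, at -107 to -89. The Calr element was also in the opposite direction, at -162 to -144, and that of Pdia6 lay at -98 to -80. The ERSE-II (an ATTGG box and CCACG separated by 1 base) was found in 12 windows (0.0365%) and the UPR element TGACGTGG in 222 windows (0.676%), none of them a window of the 10 genes, each motif searched on both strands. A match of letters is a description of the window and not a measurement of binding.

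Of the 18 libraries, each held between 12404665 and 18366011 expected counts. Sh3gl1 had 377 to 929 counts in the WT libraries and 1 to 22 in the Sh3gl1-/- libraries, so that it followed the genotype labels in all 18. Of the B-cell markers, Cd79a, a signalling chain of the B-cell receptor, was at 2614 to 5382 CPM (counts scaled to a common library size by TMM) over the 18 libraries, and Ms4a1, a B-cell surface protein, at 2019 to 5373 CPM. The 4 transitional-cell genes all fell from transitional to follicular cells in both genotypes, and 5 (WT) and 6 (Sh3gl1-/-) of 6 genes of CD40-activated B cells rose after CD40L. Of all genes, 14.2% (WT) and 6.71% (Sh3gl1-/-) were lower in follicular cells at an edgeR adjusted p under 0.05. After CD40L, 23.6% (WT) and 20.6% (Sh3gl1-/-) were higher at that threshold. In bulk RNA, fewer cells of a type and less RNA per cell cannot be told apart. A pair of transitional Sh3gl1-/- libraries, replicates 1 and 3, stood apart by a plasma cell gene: Jchain, the joining chain of secreted antibody, reached 47350 and 62858 counts there, against 16702 in replicate 2 and 5146 to 9493 in WT. Results that rest on these libraries are given with and without them.

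Levels between genes were read per transcript length (TPM), where the 10 genes ranged from 0.25 TPM (Ern1) to 1494 TPM (Hspa5) over all libraries, both in CD40L-treated WT cells. Hspa5 was the highest of the 10 in all 6 groups. In WT follicular cells Hspa5 averaged 447.6 ± 18.4 TPM (SD, n = 3), Hsp90b1 207.4 ± 17.99, Calr 198.7 ± 3.0, Pdia6 192.3 ± 5.4 and Pdia4 98.7 ± 3.4. The sensors and transcription factors were lower, at 52.0 ± 3.9 TPM for Ddit3, 13.9 ± 2.5 for Xbp1, 10.2 ± 2.6 for Atf6 and 1.07 ± 0.50 for Ern1, and so was the co-chaperone gene Dnajb9, at 4.45 ± 1.499 TPM. The ranges of Hsp90b1, Calr and Pdia6 overlapped in these cells, as did those of Xbp1 and Atf6, although within each of the 3 libraries Calr was above Pdia6 and Xbp1 above Atf6. Together the 5 chaperones and isomerases (Hspa5, Hsp90b1, Calr, Pdia4 and Pdia6) took 0.111% to 0.116% of the TPM in WT follicular cells. Their share was 0.148% to 0.161% in WT transitional cells and 0.221% to 0.315% in WT cells treated with CD40L. In Sh3gl1-/- cells it was 0.118% to 0.123%, 0.110% to 0.123% and 0.214% to 0.244% in transitional, follicular and CD40L-treated cells.

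**Figure D1:**
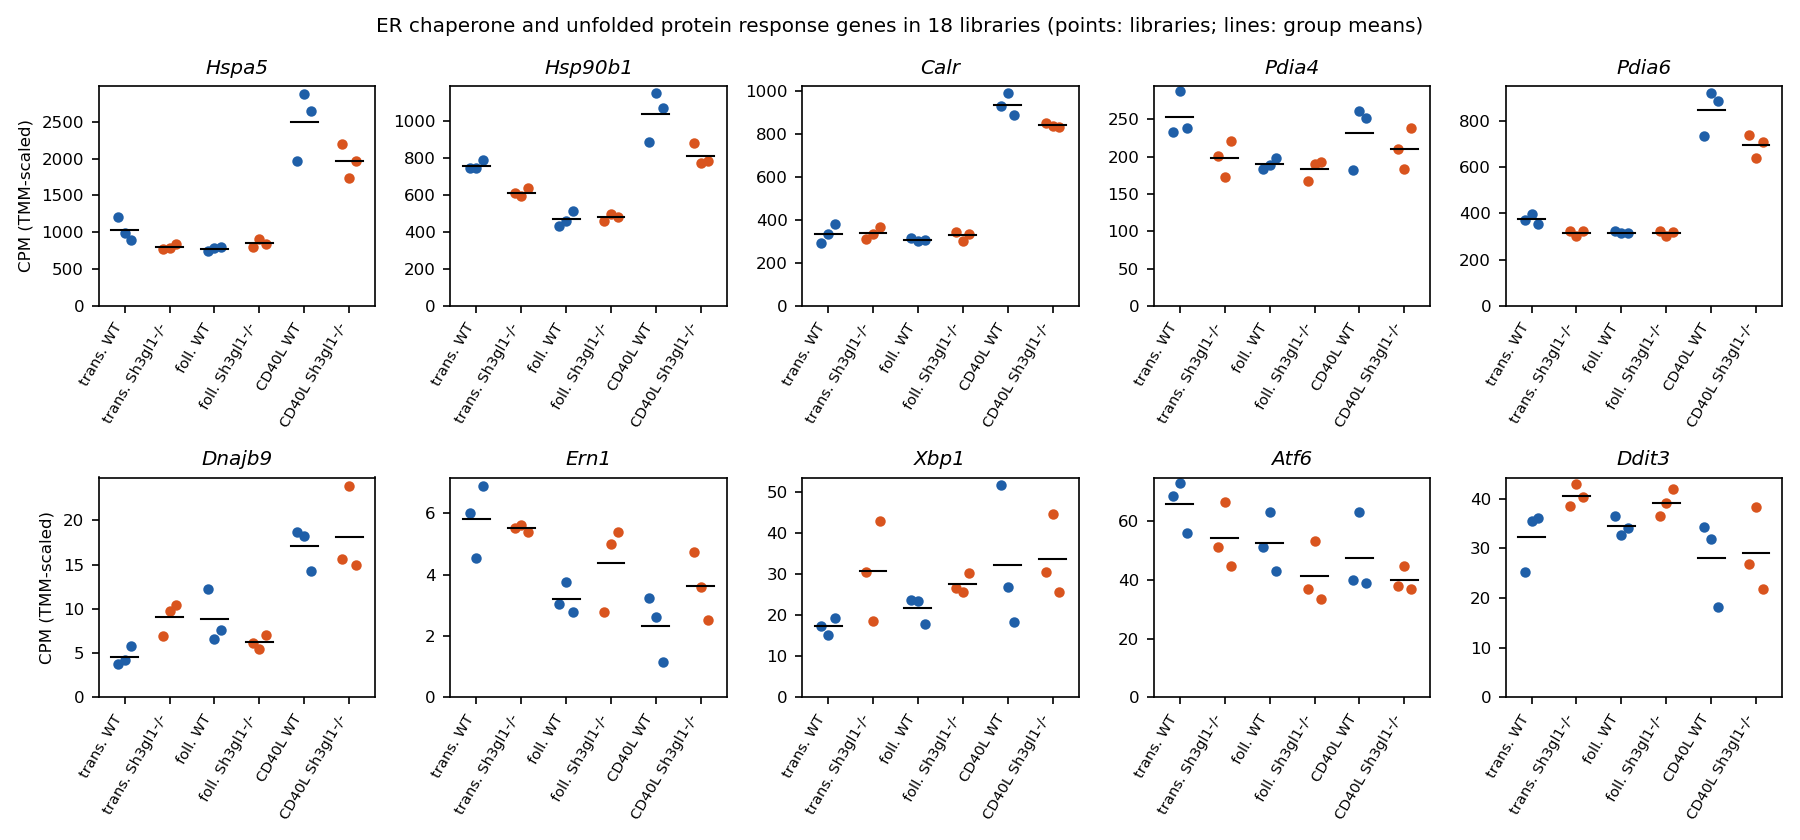
Level of each of the 10 genes in CPM (TMM-scaled, linear axis from 0) in 18 libraries, blue for WT and orange for Sh3gl1-/-, with a line at each group mean. Hspa5, Hsp90b1, Calr, Pdia6 and Dnajb9 were highest in the CD40L-treated groups, and Hsp90b1 was lower in follicular than in transitional cells.

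The response to CD40L was asked first in WT follicular cells. Hspa5, Calr, Pdia6, Hsp90b1 and Dnajb9 rose, between 1.9-fold and 3.16-fold, while Pdia4, Xbp1, Atf6, Ern1 and Ddit3 did not pass the test. This made 5 of 10 genes higher and 0 lower, at an adjusted p under 0.05 (the quasi-likelihood test of edgeR, adjusted after Benjamini and Hochberg over 14460 genes). Over all genes tested, 23.6% were called higher and 25.7% lower. The median log2 difference was 0.74 for the 10 genes and -0.08 for all genes.

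Hspa5 stood at 747, 784 and 794 CPM in the WT follicular libraries and at 1974, 2879 and 2650.0 CPM after CD40L. Every treated library was far above every untreated one, and the log2 difference was 1.66 ± 0.13 (SE; adjusted p = 1.7e-07, edgeR). For Calr the values were 315, 303 and 305 CPM before and 929.5, 989 and 888 CPM after. The spread of Calr within each group was small, and it had the lowest p of the 10 genes (log2 difference 1.58 ± 0.08, edgeR adjusted p = 5.6e-09). Pdia6 went from 323, 314 and 314 CPM to 733, 919 and 887 CPM, a log2 difference of 1.39 ± 0.10 (edgeR adjusted p = 8.9e-08). Hsp90b1 went from 433, 459 and 512 CPM to 886, 1151 and 1067 CPM, a log2 difference of 1.12 ± 0.11 (edgeR adjusted p = 1.3e-06). For each of these 4 genes the groups did not overlap, and replicate 1 was the lowest treated library for Hspa5, Hsp90b1 and Pdia6 but not for Calr. Dnajb9, counted far less, was at 12.2, 6.61 and 7.60 CPM before and 18.7, 18.2 and 14.3 CPM after (log2 difference 0.92 ± 0.25, edgeR adjusted p = 0.0075). Its groups did not overlap either, although follicular replicate 1 came close to the lowest treated library.

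Pdia4 differed from Pdia6 in this response. Its treated libraries were at 182, 261 and 252 CPM against 184, 189 and 199 CPM ex vivo, so that replicate 1 lay below all untreated libraries (log2 difference 0.26 ± 0.14, edgeR adjusted p = 0.14). Without CD40L-treated WT replicate 1 the difference was 0.39 and passed the test (edgeR adjusted p = 0.014). Xbp1 was even less uniform, at 51.6, 26.9 and 18.4 CPM after CD40L and 23.7, 23.5 and 17.8 CPM before. The high library was replicate 1, the one with the least Hspa5, Hsp90b1, Pdia4 and Pdia6, and it also had the most Dnajb9, Ddit3 and Ern1 of the treated WT libraries. The log2 difference of Xbp1 was 0.55 ± 0.30 (edgeR adjusted p = 0.15). It fell to 0.03 without treated replicate 1 and reached 0.85 without treated replicate 3 (edgeR adjusted p = 0.94 and 0.023). The sensors and CHOP did not pass the test: the log2 differences were -0.18 ± 0.21 for Atf6, -0.49 ± 0.40 for Ern1 and -0.32 ± 0.23 for Ddit3 (edgeR adjusted p = 0.52, 0.33 and 0.25). Ern1 was counted only 19 to 94 times in a library of any group. With an SE of 0.40, its difference could not be separated from the spread between libraries.

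In Sh3gl1-/- follicular cells the same 5 genes rose with CD40L. The share of all genes called was 20.6% higher and 21.8% lower. Hspa5 went from 794, 913 and 836 CPM to 2194, 1735 and 1972 CPM, with a log2 difference of 1.196 ± 0.123. Within the treated libraries, replicate 2 had the least Hspa5 and the most Xbp1 (44.5 CPM, against 30.5 and 25.7 CPM), and also the most Dnajb9, Ddit3 and Atf6. Calr rose by 1.34 ± 0.08, Pdia6 by 1.13 ± 0.10 and Hsp90b1 by 0.74 ± 0.10 on the log2 scale, with edgeR adjusted p between 2.7e-08 and 6.6e-05. Dnajb9 showed the largest difference of the 10, from 6.16, 5.49 and 7.02 CPM to 15.7, 23.8 and 14.97 CPM (log2 difference 1.53 ± 0.26, edgeR adjusted p = 0.00033). The groups did not overlap for any of the 5. Ddit3 was at 26.8, 38.3 and 21.8 CPM after treatment and 36.5, 39.0 and 42.0 CPM before (log2 difference -0.45 ± 0.23, edgeR adjusted p = 0.12). Without treated Sh3gl1-/- replicate 2 its difference was -0.70 and passed the test (edgeR adjusted p = 0.027).

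Whether the response to CD40L differed between genotypes was tested as an interaction. By edgeR 0 of the 10 genes and 0 of 14460 genes (0%) were called, and DESeq2 also called 0 of the 10. At an unadjusted p under 0.05 there were 2, Hspa5 and Hsp90b1, with a response smaller in Sh3gl1-/- cells by 0.47 ± 0.17 and 0.37 ± 0.15 on the log2 scale (edgeR adjusted p = 0.50 and 0.51). The share of all genes at that threshold is not given here. The differences for Calr and Pdia6 were -0.24 ± 0.11 and -0.26 ± 0.13, and that for Dnajb9 was 0.60 ± 0.36. The design could not separate these from the spread between libraries.

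**Figure D2:**
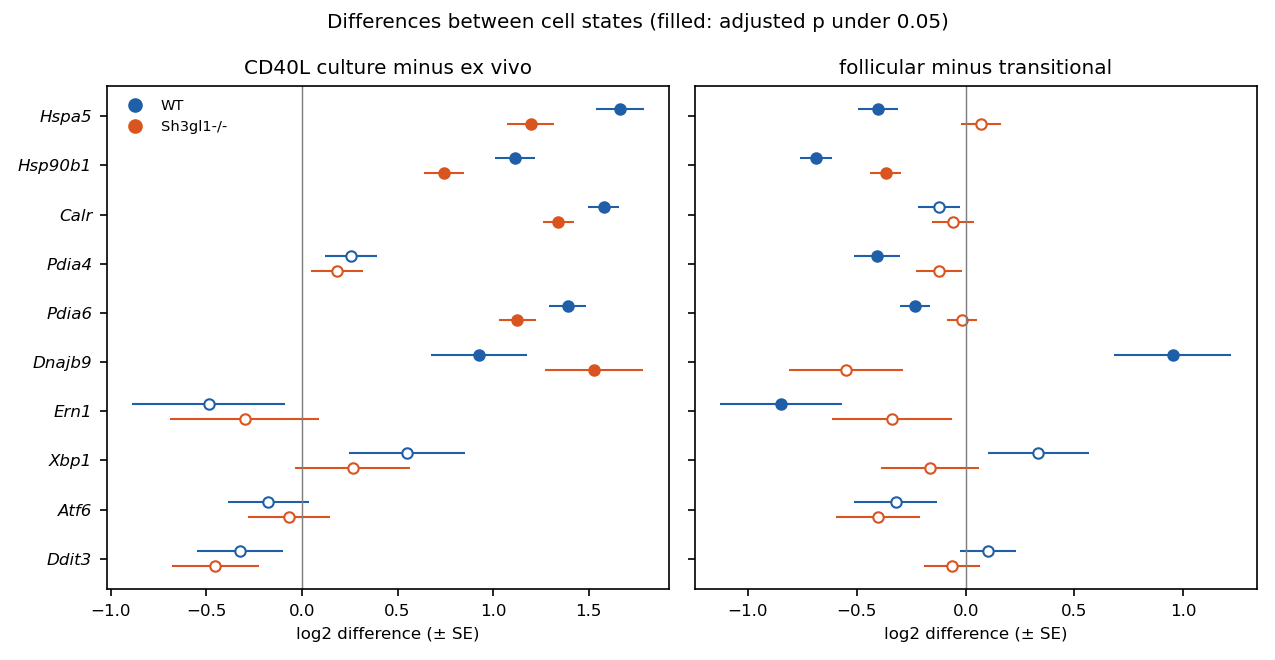
Log2 difference (± SE, edgeR) of each gene between CD40L-treated and ex vivo follicular cells and between follicular and transitional cells, WT in blue and Sh3gl1-/- in orange, with filled points past an adjusted p of 0.05. The 5 genes that rose after CD40L did so in both genotypes, whereas between follicular and transitional cells only Hsp90b1 was called in both.

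The wider pathway was read from 8 lists of ER and heat-shock genes, counted without the 10 genes (102 other genes in all). The counts stand beside 23.6% of all genes higher and 25.7% lower after CD40L in WT cells. In the Hsp70 system of the ER, 7 of 11 genes rose in WT cells after CD40L and 0 fell, with Manf, a BiP-binding ER protein, up by 1.76 ± 0.18 (median of the list 0.43). Among GRP94 and lectin chaperones 3 of 7 rose and 0 fell, including calnexin, Canx (1.15 ± 0.09). The isomerases and oxidases moved both ways, with 6 of 12 higher and 3 lower. Erp44, which retains client proteins in the secretory pathway, rose by 1.11 ± 0.11, while the isomerase gene Txndc5 had a difference of -3.61 ± 0.14, a size reached by none of the 10 genes. Of 19 genes of translocation and signal peptide processing 12 rose and 2 fell, with Ssr2 at 0.69 ± 0.09 and Tram2 at -0.81 ± 0.16. Of 19 genes of ER-associated degradation 5 rose and 2 fell, with Vcp at 1.44 ± 0.18 and Herpud2 at -0.95 ± 0.18, a share of rises near that of all genes.

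Of 6 other sensors and transcription factors tested, 1 rose and 3 fell (median -0.23). The one that rose was Atf4 (0.30 ± 0.10, edgeR adjusted p = 0.019), and Eif2ak3, which encodes PERK, was lower by 1.31 on the log2 scale (SE 0.14, edgeR adjusted p = 4.2e-06). Downstream of PERK, 5 of 9 ATF4 and CHOP target genes rose and 0 fell, led by the pseudokinase gene Trib3 (2.62 ± 0.50), while Ddit3 itself was not called. Heat-shock proteins outside the ER rose as well, 9 of 11 with 1 lower (median 1.53), Hsp90ab1 by 1.86 ± 0.10 and Hspa4l with -1.05 ± 0.21. The cytosolic and mitochondrial list thus had a higher median than any ER list.

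In Sh3gl1-/- cells the counts after CD40L were similar in direction. Over all genes, 20.6% were higher and 21.8% lower. In the Hsp70 system 4 of 11 rose and 0 fell (Manf 1.93 ± 0.19). Of the GRP94 and lectin list 4 of 7 rose (Canx 0.94 ± 0.09), of the isomerases 4 of 12 rose and 3 fell (Erp44 1.37 ± 0.11 and Txndc5 -3.24 ± 0.14). For translocation 9 of 19 rose and 3 fell (Spcs2 0.90 ± 0.13 and Tram2 -0.76 ± 0.16), and for degradation 3 of 19 rose and 3 fell (Herpud1, an ER-membrane degradation factor, 1.39 ± 0.15), no more than the shares of all genes. Among the sensors Atf6b rose (0.66 ± 0.18) and Eif2ak3 was lower by 0.79 (SE 0.14), with 1 of 6 higher and 3 lower. Of the PERK pathway targets 5 of 9 rose and 1 fell, Ppp1r15b (-0.39 ± 0.13), and of the heat-shock list 9 of 11 rose (Hsp90ab1 1.49 ± 0.10) and 1 fell (Hspa4l -0.68 ± 0.21). Chac1, a glutathione-degrading enzyme and CHOP pathway target, had the lowest p of its list and is given by its counts, which were 0 in all 3 libraries before treatment and 17, 19 and 5 after it. In 0 of the 8 lists was any gene called for a difference between the genotypes in this response (edgeR).

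**Figure D3:**
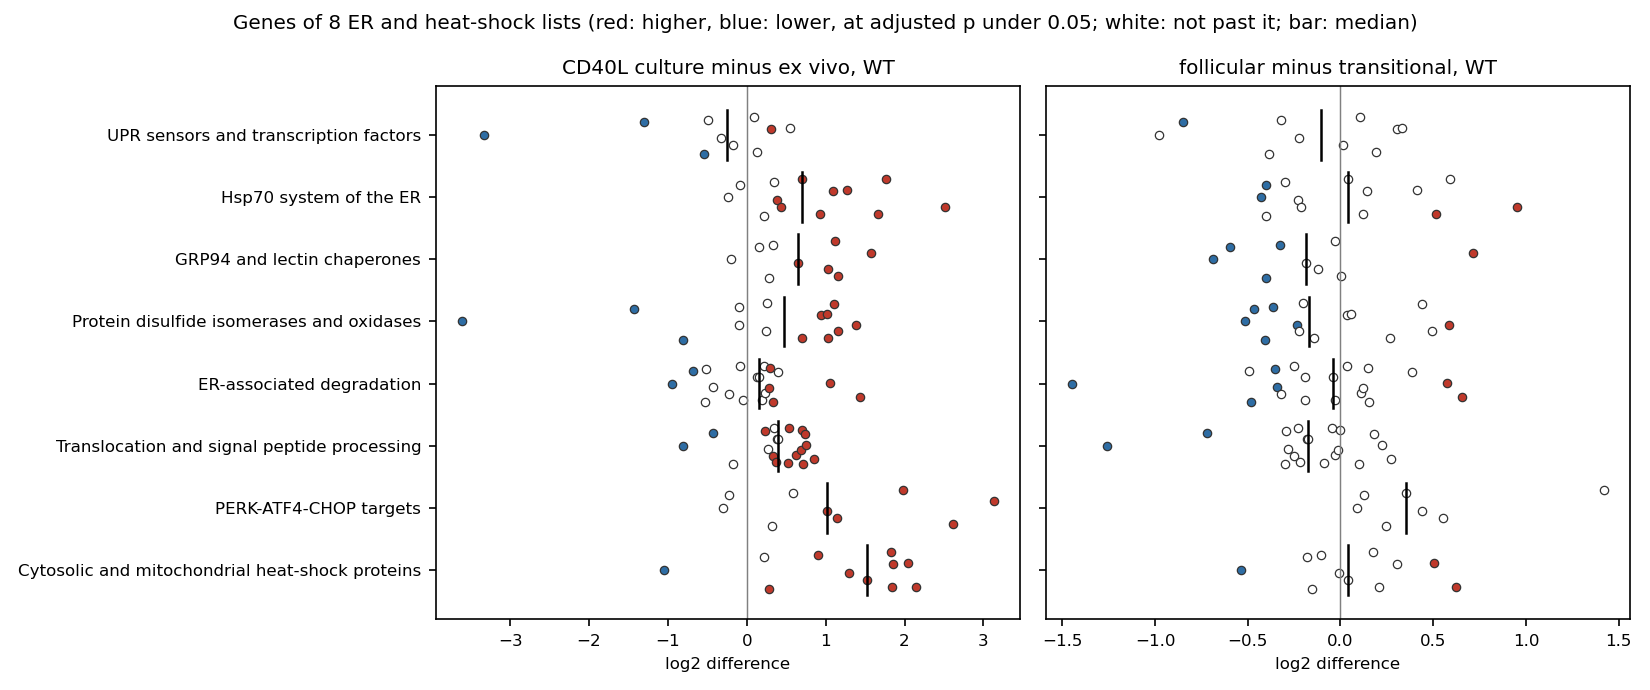
Log2 difference of every tested gene of 8 ER and heat-shock lists, the 10 genes included, in WT cells, after CD40L (left) and between follicular and transitional cells (right), red and blue for genes called higher and lower and a bar at each list's median. After CD40L the list medians run from -0.25 for the sensors and transcription factors to 1.53 for the cytosolic and mitochondrial heat-shock proteins.

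Markers of other cells moved with the culture. In WT libraries the summed level of 8 T-cell genes went from 178 to 212 CPM ex vivo to 69.9 to 106 CPM after CD40L, that of 5 erythroid genes from 1433 to 3865 CPM to 6.56 to 362 CPM, and that of 4 NK-cell genes from 25.6 to 80.9 CPM to 1.897 to 3.08 CPM. All 17 genes of these 3 lists fell in both genotypes. Of all genes, 25.7% were called lower after CD40L in WT and 21.8% in Sh3gl1-/- cells. The 8 neutrophil and monocyte genes summed to 123 to 163 CPM ex vivo and 10.6 to 30.5 CPM after, with Ly6g at 0 in both. The summed level of 9 plasma cell genes (without Xbp1) went from 428 to 462 CPM to 616 to 643 CPM in WT and from 416 to 442 CPM to 489 to 508.5 CPM in Sh3gl1-/- libraries, without overlap. In WT cells 2 genes of the list were called higher, Irf4 (1.67 ± 0.14) and Mzb1 (0.43 ± 0.10), and 3 lower, beside 23.6% and 25.7% of all genes. Irf4 went from 60.9, 74.9 and 64.05 CPM to 200, 215 and 234 CPM. Sdc1 went the other way, from 1.505 to 4.08 CPM to at most 0.306 CPM. Fkbp11 went from 6.73 to 8.81 CPM to 0.414 to 0.869 CPM. Jchain was lower by 2.05 on the log2 scale, and Tnfrsf17 was at 0 in all WT libraries of both states. The rise of the sum thus did not hold for the whole list. The part of these markers in the chaperone differences was not tested.

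The genes with a promoter ERSE were also read across the table. Of 33 genes matched by symbol, 18 were tested, and in WT cells 8 rose after CD40L and 1 fell. Besides the 4 described above (Hspa5, Hsp90b1, Calr and Pdia6) these were Canx, the ER stress gene Creld2 (0.94 ± 0.28), Alg12 of glycan assembly (0.51 ± 0.17) and Hnrnpa3 (0.44 ± 0.12), named after their values were seen. Among the 14 that are not of the 10 genes, 4 rose and 1 fell, with a median of 0.01 against -0.08 for all genes, of which 23.6% were higher and 25.7% lower. Of these 14, 2 rose and 2 fell in Sh3gl1-/- cells (median -0.03, and -0.03 for all genes). Dnajb9 and Pdia4 had no exact ERSE in their windows, and their differences after CD40L were 0.92 and 0.26 in WT and 1.53 and 0.18 in Sh3gl1-/- cells. The 10 genes thus include ERSE genes that all rose, while other genes with the same letters, Dnajc3 (0.22 ± 0.17) and Syvn1 (0.13 ± 0.14) among them, did not pass the test.

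The comparison of follicular with transitional cells asks how the programme stands at these stages of maturation. In WT cells Hsp90b1, Hspa5, Pdia4, Pdia6 and Ern1 were lower and Dnajb9 was higher in follicular cells (5 lower and 1 higher of 10, edgeR adjusted p under 0.05). Of all 14580 genes tested, 14.2% were called lower and 11.7% higher. The median log2 difference was -0.28 for the 10 genes and 0.03 for all genes.

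Hsp90b1 stood at 744, 742 and 786 CPM in WT transitional cells against 433, 459 and 512 CPM in WT follicular cells. The groups were far apart relative to their spread, with a log2 difference of -0.69 ± 0.07 (edgeR adjusted p = 2.3e-05). Hspa5 was at 1202, 987 and 901 CPM against 747, 784 and 794 CPM (log2 difference -0.40 ± 0.09, edgeR adjusted p = 0.0064). Pdia4 was at 233, 289 and 239 CPM against 184, 189 and 199 CPM (-0.41 ± 0.11), and Pdia6 at 372, 396 and 354 CPM against 323, 314 and 314 CPM (-0.23 ± 0.07). None of these groups overlapped, but the difference of Pdia6 was small, 1.18-fold, and that of Pdia4 1.33-fold. The calls of Pdia4 and Pdia6 (edgeR adjusted p = 0.013 and 0.024) were each lost without WT transitional replicate 2 (edgeR adjusted p = 0.067 and 0.099), that of Pdia4 also without WT follicular replicate 1 (0.052), and that of Pdia6 also without WT follicular replicate 2 or 3 (0.065 and 0.066). Calr, in contrast, was at 294, 334 and 381 CPM against 315, 303 and 305 CPM, and the follicular libraries lay within the range of the transitional ones (-0.12 ± 0.10, edgeR adjusted p = 0.38).

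Among the other genes, Ern1 was at 6.01, 4.54 and 6.87 CPM in WT transitional and 3.05, 3.77 and 2.79 CPM in WT follicular cells (log2 difference -0.85 ± 0.28, edgeR adjusted p = 0.039). This call was lost in 4 of 6 fits that left out 1 library, those without transitional replicate 1 or 3 or follicular replicate 1 or 3 (adjusted p between 0.082 and 0.12). Dnajb9 was at 3.76, 4.25 and 5.76 CPM in transitional cells and 12.2, 6.61 and 7.60 CPM in follicular cells (0.95 ± 0.27, edgeR adjusted p = 0.019). Follicular replicate 1 was the highest by far, and without it the difference was 0.64 (edgeR adjusted p = 0.11). The call was also lost without transitional replicate 1 or 2 (0.069 and 0.062). Xbp1 and Ddit3 overlapped between the stages, with differences of 0.33 ± 0.23 and 0.10 ± 0.13. Atf6 was at 68.7, 73.0 and 56.1 CPM against 51.1, 63.1 and 43.2 CPM, and replicate 2 was the highest library of both groups. Its difference of -0.32 ± 0.19 did not pass the test (edgeR adjusted p = 0.24). With replicate number as a block Atf6 was called lower, by 0.33 (SE 0.09, edgeR adjusted p = 0.019), which brought the count in WT cells to 7 of 10, and with a block within each genotype Ern1 was lost (adjusted p = 0.054).

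In Sh3gl1-/- cells the same comparison called 1 of the 10 genes, with 6.71% of all genes lower and 3.7% higher. Hsp90b1 was at 608, 592 and 635 CPM in transitional and 458, 495 and 481 CPM in follicular cells, without overlap (log2 difference -0.37 ± 0.07, edgeR adjusted p = 0.0042). Left with transitional replicate 2 alone, the difference was -0.32 ± 0.11 and was not called (edgeR adjusted p = 0.12). Hspa5 was at 767, 790.4 and 848 CPM against 794, 913 and 836 CPM, and Pdia6 at 323, 303 and 324 CPM against 324, 302 and 319.8 CPM, with overlapping groups and differences of 0.07 ± 0.09 and -0.02 ± 0.07. Dnajb9 was at 6.97, 9.76 and 10.4 CPM against 6.16, 5.49 and 7.02 CPM, a difference of -0.55 ± 0.26 (edgeR adjusted p = 0.22). Atf6 was not called (-0.40 ± 0.19, edgeR adjusted p = 0.22), but with a replicate block it was lower by 0.41 (SE 0.09, edgeR adjusted p = 0.013) and the count rose to 2 of 10. It was also called in the fit on all genes with at least 1 count (edgeR adjusted p = 0.021).

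The difference between the genotypes in this step was tested as an interaction, in which edgeR called 10 of 14580 genes (0.0686%) and 0 of the 10 genes described here. At an unadjusted p under 0.05 there were 4. The step of Dnajb9 differed by -1.502 ± 0.377 (log2, Sh3gl1-/- minus WT, edgeR adjusted p = 0.13), and those of Hspa5, Hsp90b1 and Pdia6 were higher by 0.47 ± 0.13, 0.32 ± 0.10 and 0.22 ± 0.10 (edgeR adjusted p = 0.16, 0.19 and 0.35). DESeq2 called 3 of these (Dnajb9, Hspa5 and Hsp90b1, adjusted p = 0.022, 0.025 and 0.048). The shares of all genes by DESeq2 and at an unadjusted p under 0.05 are not given here, so these counts are not set against all genes. Leaving out transitional Sh3gl1-/- replicates 1 and 3 gave -1.61 ± 0.45 for Dnajb9, 0.50 for Hspa5 and 0.37 for Hsp90b1, sizes as large as with them, with edgeR adjusted p between 0.48 and 0.56.

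The wider lists were mixed between the stages. Counted again without the 10 genes, and beside 11.7% of all genes higher and 14.2% lower, in WT cells the sensor list had 0 higher and 0 lower of 6, the Hsp70 system 1 higher (Dnajb11 0.52 ± 0.17) and 1 lower of 11 (Mzb1, a B-cell co-chaperone of GRP94, -0.43 ± 0.10). The GRP94 and lectin list had 1 higher (Mogs 0.71 ± 0.20) and 3 lower of 7 (Prkcsh -0.60 ± 0.13), and the isomerases 1 higher (Pdia3 0.59 ± 0.15) and 3 lower of 12 (Txndc5 -0.47 ± 0.10). For degradation there were 2 higher (Herpud2 0.58 ± 0.18) and 4 lower of 19 (Derl3 -1.45 ± 0.32), for translocation 0 higher and 2 lower of 19 (Tram2 -1.26 ± 0.10), for PERK pathway targets 0 of 7, and for heat-shock proteins 2 higher (Hspa4 0.51 ± 0.10) and 1 lower of 11 (Hspa8 -0.54 ± 0.16). In Sh3gl1-/- cells, where 6.71% of all genes were lower, 6 of 19 degradation genes were lower (Edem2 -0.92 ± 0.16), 3 of 19 translocation genes (Tram2 -1.31 ± 0.10), and 2 of 12 isomerases (Txndc5 -0.74 ± 0.10), with 2 heat-shock genes higher (Hsp90aa1 0.29 ± 0.07) and 0 called in the other 4 lists. Of the 10 plasma cell genes, 4 were called lower in WT and 3 in Sh3gl1-/- follicular cells. The rest were not called in WT cells, where Xbp1 and Fkbp11 had differences of 0.33 ± 0.23 and 0.34 ± 0.29. The summed level of the plasma cell genes without Xbp1 was 864 to 1109 CPM in WT transitional and 428 to 462 CPM in WT follicular cells. Without Jchain as well it was 458 to 486 CPM and 331 to 393 CPM. The transitional-cell genes fell with them, from 903.5 to 1048 CPM to 381 to 467 CPM in WT cells. The part of either in the difference was not tested.

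Sh3gl1-/- cells were compared with WT cells within each state. In transitional cells the chaperones Hspa5, Hsp90b1, Pdia4 and Pdia6 were lower in every Sh3gl1-/- library than in every WT library, and Dnajb9 and Ddit3 were higher, but edgeR called 0 of the 10 genes (3.73% of 13774 genes were called). The groups did not overlap for 6 of the 10 genes, against 28% of all genes. At an unadjusted p under 0.05 there were 7 genes, and DESeq2 called 6, all but Ddit3 of these 7. The shares of all genes at that threshold and by DESeq2 are not given here, so these counts are not set against all genes.

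Hsp90b1 came closest to the threshold, at 744, 742 and 786 CPM in WT and 608, 592 and 635 CPM in Sh3gl1-/- transitional cells, 1.24-fold lower (log2 difference -0.31 ± 0.07, edgeR adjusted p = 0.053). Hspa5 was lower by 0.36 (SE 0.11, edgeR adjusted p = 0.098), Pdia4 by 0.35 (SE 0.12) and Pdia6 by 0.24 (SE 0.08), the last pair with an edgeR adjusted p of 0.12 each. Calr did not share this difference (0.01 ± 0.11). Dnajb9, at 3.76, 4.25 and 5.76 CPM in WT and 6.97, 9.76 and 10.4 CPM in Sh3gl1-/- cells, was 1.97-fold higher (0.98 ± 0.26, edgeR adjusted p = 0.069). Ddit3 was at 25.1, 35.5 and 36.2 CPM in WT and 38.5, 43.0 and 40.3 CPM in Sh3gl1-/- cells, and WT replicate 1 stood below the other 2 (0.33 ± 0.15, edgeR adjusted p = 0.22).

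Among transitional libraries Xbp1 was highest in the pair with the most Jchain. It was at 30.5, 18.6 and 42.9 CPM in the 3 transitional Sh3gl1-/- libraries, against 17.4, 15.3 and 19.2 CPM in WT, with a log2 difference of 0.83 ± 0.26 (edgeR adjusted p = 0.11). The high libraries were replicates 1 and 3, in which the other 9 plasma cell genes summed to 3154 and 4931 CPM, against 1416 CPM in replicate 2 and 864 to 1109 CPM in WT. Most of this sum was Jchain, at 2774 and 4518 CPM in that pair and 1066 CPM in replicate 2. The other 8 genes summed to 380, 350 and 413 CPM in the 3 Sh3gl1-/- libraries against 458 to 486 CPM in WT. Mzb1 made most of this smaller sum, at 261, 225 and 271 CPM. Derl3 (9.0, 7.0 and 13.6 CPM) and Fkbp11 (6.5, 5.1 and 11.2 CPM) followed the order of Xbp1, highest in replicate 3 and lowest in replicate 2. So did Sdc1 and Prdm1, whereas Irf4 did not (62.5, 79.7 and 73.1 CPM). Of these genes only Mzb1 was called between genotypes, lower in Sh3gl1-/- cells. Tnfrsf17, the receptor BCMA of plasma cells, had 70 and 72 counts in replicates 1 and 3, against 11 in replicate 2 and 5 to 21 in WT. Without replicate 2 the Xbp1 difference was 1.09 and was called (edgeR adjusted p = 0.024), and without replicates 1 and 3 it was 0.11 ± 0.22. Without replicates 1 and 3 the differences were 1.09 ± 0.36 for Dnajb9, 0.42 ± 0.23 for Ddit3, -0.38 ± 0.17 for Hspa5, -0.35 ± 0.12 for Hsp90b1 and -0.30 ± 0.14 for Pdia6, and that of Pdia4 was larger, at -0.55 ± 0.17. With 1 library left none of these was called (edgeR adjusted p between 0.56 and 0.71). That fit assumes the lone library to vary like the WT libraries.

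Of the plasma cell list 1 of 10 genes was called higher in Sh3gl1-/- transitional cells, Jchain (2.35 ± 0.42), and 1 lower, Mzb1 (-0.44 ± 0.10, edgeR adjusted p = 0.038). Outside the 10 genes, Mzb1 and the cytosolic chaperone gene Hsp90ab1 (-0.30 ± 0.07, edgeR adjusted p = 0.048) were the 2 genes of the 8 pathway lists that were called there. All 5 erythroid genes were higher in these libraries, with a summed level of 4443 to 9514 CPM against 2281 to 3974 CPM in WT. The marginal zone genes summed to 195 to 239 CPM against 328 to 353 CPM, with 1 of 4 called lower. The 4 transitional-cell genes summed to 522 to 828 CPM against 903.5 to 1048 CPM, with 1 called lower, Cd24a (-0.87 ± 0.155, edgeR adjusted p = 0.026). Of 8 T-cell genes 0 were called, although 5 were higher and 1 lower without overlap, and their sums were 167 to 228 CPM against 151 to 188 CPM. The neutrophil genes S100a8 and S100a9 were above WT in every library, by 2.004 ± 0.506 and 2.02 ± 0.54 on the log2 scale (edgeR adjusted p = 0.062 and 0.072). Lyz2, Itgam, Csf1r, Elane and Mpo of the same list overlapped between genotypes. The 8 neutrophil and monocyte genes summed to 292 to 724 CPM against 325 to 389 CPM in WT. The part of these marker genes in the chaperone differences was not tested.

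**Figure D4:**
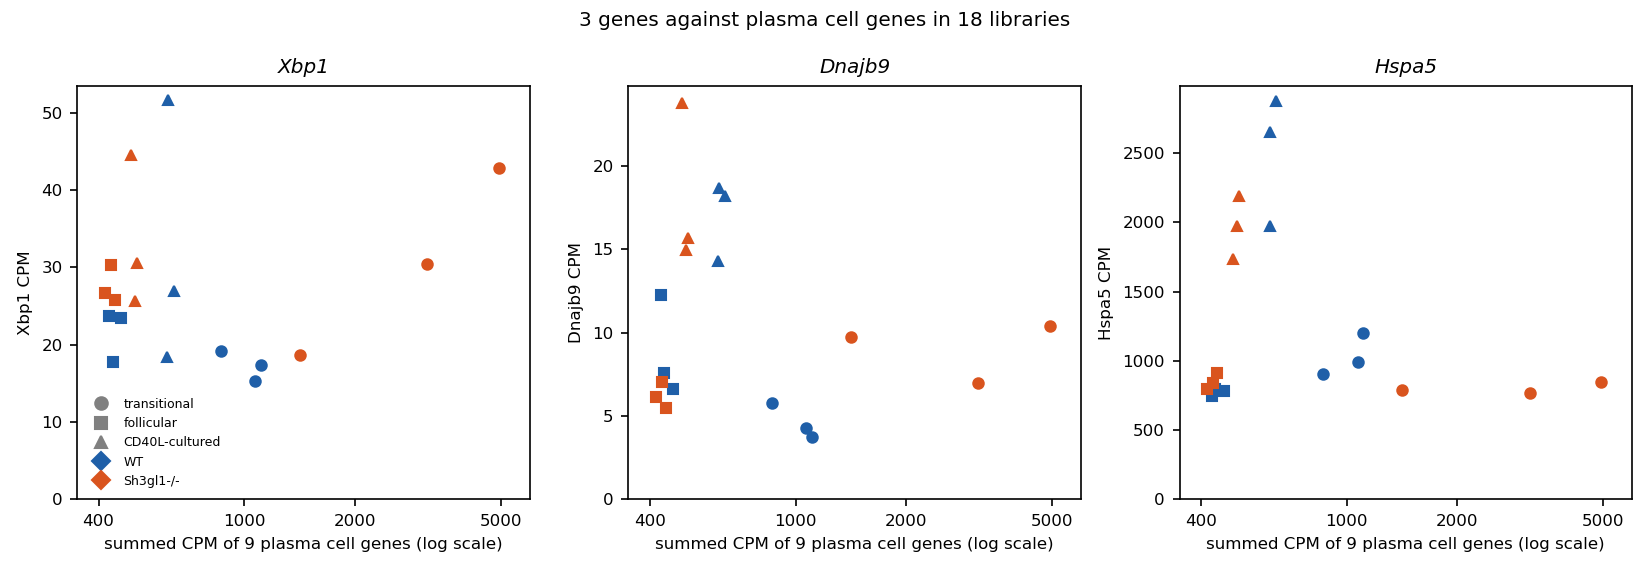
CPM of Xbp1, Dnajb9 and Hspa5 (linear axes from 0) against the summed CPM of 9 plasma cell genes (log scale) in 18 libraries, circles for transitional, squares for follicular and triangles for CD40L-treated cells, blue for WT and orange for Sh3gl1-/-. Among transitional libraries Xbp1 was highest in the pair with 3154 and 4931 CPM of plasma cell genes, of which Jchain made 2774 and 4518 CPM, while Dnajb9 was above WT in all 3 Sh3gl1-/- libraries.

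In follicular cells edgeR called 0 of the 10 genes between genotypes (0.845% of 13610 genes were called), and DESeq2 0. The groups were separate for 1 gene, Xbp1, at 23.7, 23.5 and 17.8 CPM in WT and 26.7, 25.7 and 30.3 CPM in Sh3gl1-/- cells, against 16% of all genes. It was also the only one at an unadjusted p under 0.05 (0.35 ± 0.14, edgeR adjusted p = 0.40). The chaperones lay close together, from -0.06 ± 0.09 for Pdia4 to 0.13 ± 0.07 for Hspa5. Dnajb9 was lower by 0.51 in Sh3gl1-/- cells (SE 0.27, edgeR adjusted p = 0.55), the opposite direction to transitional cells, with 1 WT library (replicate 1, 12.2 CPM) far above the others. Of the pathway lists 1 gene was called, Txndc5 (-0.42 ± 0.08, edgeR adjusted p = 0.034). Marker genes differed as well. The T-cell genes summed to 267 to 319 CPM in Sh3gl1-/- and 178 to 212 CPM in WT follicular libraries. The transitional-cell genes summed to 307 to 317 CPM against 381 to 467 CPM, and the neutrophil and monocyte genes to 175.5 to 611 CPM against 123 to 163 CPM. Cd3e was called higher (1.37 ± 0.17) and Cd24a lower (-0.75 ± 0.09). The erythroid and NK-cell sums overlapped. The part of these markers was not tested.

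In CD40L-treated cells edgeR again called 0 of the 10 genes, with 0.0227% of 13188 genes called, and DESeq2 0. Hsp90b1 was at 886, 1151 and 1067 CPM in WT and 879, 773 and 779.8 CPM in Sh3gl1-/- cells, and Calr at 929.5, 989 and 888 CPM and 854, 838 and 835 CPM. These 2 genes were those without overlap, against 13.8% of all genes, and the gap between the nearest libraries of Hsp90b1 was small. Hsp90b1 had the only unadjusted p under 0.05 (-0.32 ± 0.12, edgeR adjusted p = 0.66). Hspa5, Pdia6 and Calr had differences of -0.32 ± 0.15, -0.25 ± 0.12 and -0.12 ± 0.10. Xbp1 overlapped widely (0.08 ± 0.36), as did Ddit3 (0.07 ± 0.28) and Ern1 (0.65 ± 0.44), for which a difference of that size was not detectable.

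**Figure D5:**
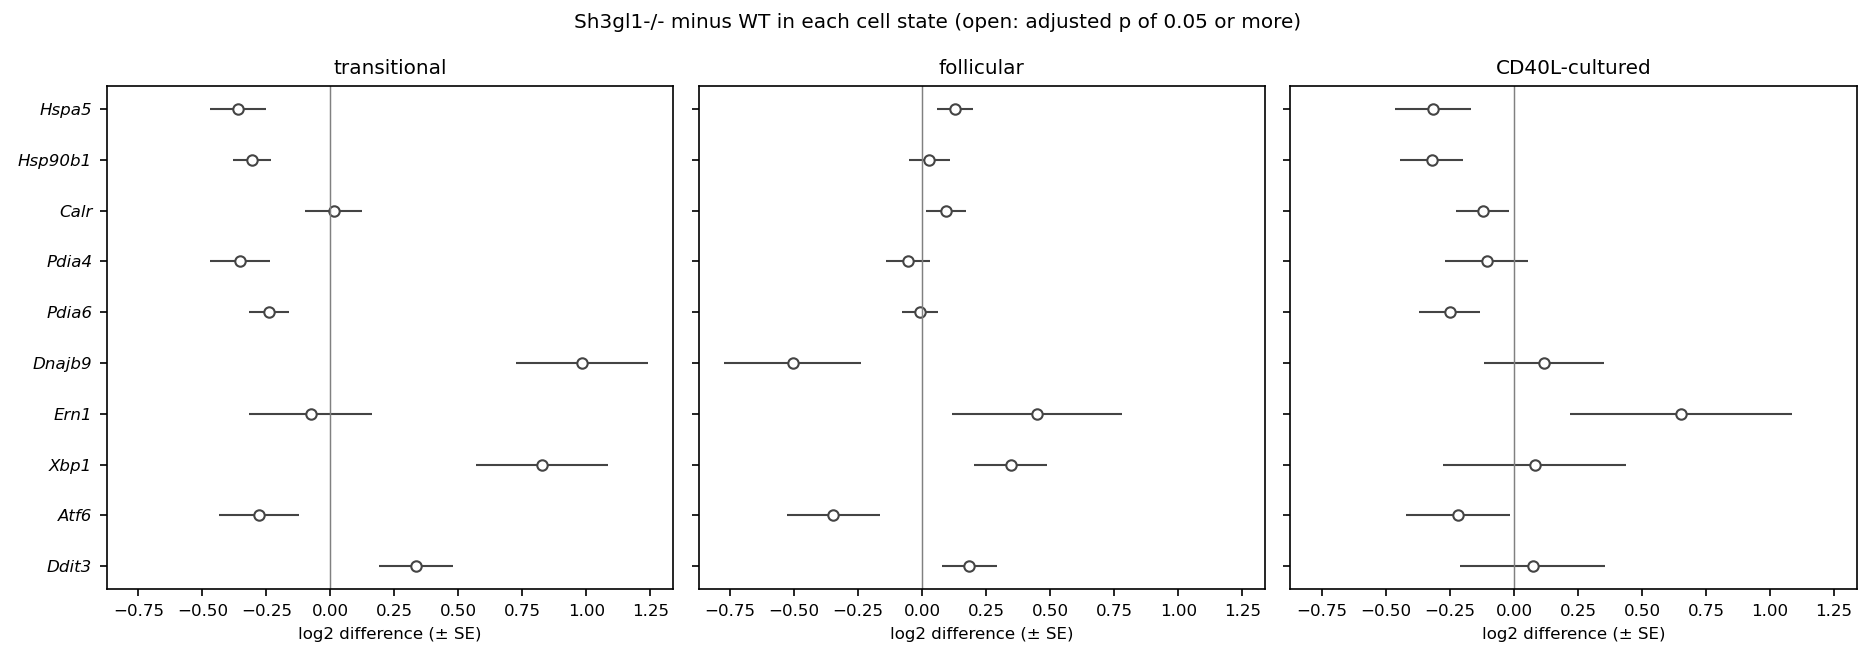
Log2 difference (± SE, edgeR) between Sh3gl1-/- and WT cells for the 10 genes in transitional, follicular and CD40L-treated cells on a shared axis, all points open since none passed an adjusted p of 0.05. In transitional cells Hspa5, Hsp90b1, Pdia4 and Pdia6 lie between -0.36 and -0.24, and Dnajb9 at 0.98.

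The order of the groups differed between genes. Hspa5, Hsp90b1, Calr, Pdia6 and Dnajb9 had their highest means in the 2 CD40L-treated groups, which no test separated from each other. For Hspa5, Pdia6 and Hsp90b1 WT transitional cells came next. In WT cells Hsp90b1 averaged 1034 ± 136 CPM after CD40L, 757 ± 25 CPM in transitional and 468 ± 40 CPM in follicular cells (SD, n = 3). Pdia4 had its highest mean in WT transitional cells, at 253.5 ± 30.6 CPM, and was at 232 ± 43 CPM after CD40L, a gap within the spread. Atf6 and Ern1 also had their highest means in WT transitional cells, at 65.9 ± 8.8 CPM and 5.81 ± 1.18 CPM. Ddit3 ranged only from 28.1 ± 8.7 CPM in CD40L-treated WT to 40.6 ± 2.3 CPM in transitional Sh3gl1-/- cells. Xbp1 was lowest in WT transitional cells, at 17.3 ± 2.0 CPM, and its 2 CD40L-treated groups, at 32.3 ± 17.3 and 33.6 ± 9.8 CPM, spread so far that neighbours in the order did not separate.

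Likeness over the 6 groups was measured as the root mean square (RMS) difference of the centred group means of log2 CPM, among 15117 genes. Hspa5 and Pdia6 were the nearest pair among the 10, with an RMS difference of 0.089 against a range of 1.67 for Hspa5 over the groups, and Calr was nearest to Hspa5 (0.129). Over all genes, those most like Hspa5 were Tcp1, Psmc3ip and Gm9761 (0.056 to 0.066), those most like Pdia6 were Fam136a, Psmd1 and Got2 (0.031 to 0.040), and those most like Calr were Mrpl14, Tufm and Pgk1 (0.028 to 0.050). Hsp90b1 was most like Ctsz, Ankrd27 and Pes1 (0.036 to 0.063), and Pdia4 like Usp15, Opa1 and Nckap1l (0.015 to 0.031). Of the 30 genes named by this rule for the 10, 0 were in the fixed lists. Those lists hold 102 other genes, few beside the 15117 compared, so that 0 of 30 is not read as a result. The gene nearest to Dnajb9, Stamos, was at 0.132, against a range of 1.86 for Dnajb9 over the groups. Xbp1 resembled none of the 10 closely, with Ddit3 nearest at 0.397.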

How the data were processed

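RNA of 18 libraries (6 groups of 3) was analysed from the authors' table. The deposited expected counts were estimated by the authors with RSEM 1.3.0 and were not normalized, and the deposited TPM and FPKM are estimates that the authors scaled by the length of each transcript and by depth. The submitters' processing notes also name cutadapt 1.9.1, STAR 2.5.2a and GRCm38, while the methods name TopHat and Cufflinks. The labels describe a stranded KAPA kit and 14 h of CD40L, whereas the methods describe SMART-Seq HT with Nextera XT and an overnight culture, and the study's legends give a longer one. Whether counting used strand was not stated. Ddit3 overlaps Mars (175 to 969 counts) and Hsp90b1 overlaps 1810014B01Rik (118 to 274 counts) on the opposite strand, and an additional annotated Ddit3 gene shares its position, so that their counts are uncertain to that extent. TPM served for levels between genes, and FPKM was not used.

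Expected counts, of which 10.3% to 11.6% of a library were not whole, were rounded. R 4.3.3 with edgeR 4.0.16 was used: TMM, filterByExpr, glmQLFit and glmQLFTest, Benjamini-Hochberg adjustment over all genes tested, called at 0.05. The SE is the size of the difference over the square root of F. Comparisons between states were fitted on 12 libraries with 1 term per group, and those between genotypes on the 6 of a state. Symbols came from GENCODE M21 (51633 of 51912 identifiers) and promoters from RefSeq on GRCm38.p6. Each of 54 columns matched 1 library and 0 were left out. The floor of 3 counts equals 0.163 to 0.242 CPM and covers counting error only. The fits were tested on simulated counts. The alternatives were DESeq2 1.42.0, RLE size factors, no filter on low counts, all 18 libraries in 1 fit, a replicate block and leaving out each library. Added after seeing the data were a block within each genotype and leaving out the 2 transitional Sh3gl1-/- libraries with most Jchain.

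The 10 genes and all lists were chosen with earlier results of these data known. Named genes are the 10, in each list the called gene with the lowest p in each direction of a comparison once the 10 are left out, as in the lists' counts (1 gene is not reported here), the 3 most alike genes of each of the 10, Sh3gl1 and markers where they moved. Same-numbered libraries correlated in their deviations from the group means for WT follicular with WT CD40L-treated cells (r = 0.222 to 0.337), WT transitional with follicular cells (0.165 to 0.361) and Sh3gl1-/- transitional with follicular cells (0.197 to 0.390), which pairs them by the data. For Sh3gl1-/- follicular with CD40L-treated cells r was 0.013 to 0.203. The best match of each follicular library there was the CD40L-treated one of the same number. An r of 0.013 pairs replicate 3 only weakly. The main fits did not use this pairing. The replicate block gave each number a term shared by both genotypes, and the block within each genotype gave separate terms.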

Additional observations from a re-analysis of the deposited data

How the results depend on the processing

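The 5 genes that rose after CD40L were called in all alternatives and in both genotypes, with 5 or 6 of 10 called and 5 to 6 when 1 library was left out; the interaction stayed at 0. Between follicular and transitional WT cells the count was 4 to 7, and 3 to 5 when 1 library was left out (3 without transitional replicate 2 or follicular replicate 1). In Sh3gl1-/- cells it was 2 instead of 1 with all genes of at least 1 count, 2 with the replicate block and 2 with the block within each genotype, in each case by the addition of Atf6, and 0 without the 2 libraries with most Jchain. Shares of all genes called under the alternatives are not given here, so their counts are not set against all genes. For the difference between genotypes in the follicular-transitional step, DESeq2 called 3 of the 10 genes. The fit on all genes with at least 1 count called 2, against 0 in the main fit. Between genotypes in transitional cells DESeq2 called 6 and the fit on all genes with at least 1 count called 5, against 0, with a range of 0 to 1 when 1 library was left out; the causes were not tested. Apart from these, from Atf6 in WT cells and from Ern1, lost with the block within each genotype, the replicate block changed no call of the 10 genes. Between genotypes the numbers did not pair the libraries (r between -0.151 and 0.188), and the block called 0 of 10 in each state. No direction of a called gene reversed, and RLE size factors changed no call; the median of all genes shifted by at most 0.04 on the log2 scale between fits. Ern1 and Dnajb9 had 19 to 298 counts in a library, which limits their precision.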
